A study of Arabidopsis thaliana with 27 samples.

Results

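SPATULA (SPT, AT4G36930) and INNER NO OUTER (INO, AT1G23420) are a pair of transcription factor genes of the Arabidopsis pistil. Their probe sets were chosen by gene symbol, as those whose single symbol in the array's annotation is SPT or INO. Each gene has 1 such probe set, 2 of the 22746 tested. The levels came from ATH1 arrays of rosette leaves 5 to 8 and of inflorescences holding flowers of stages 1 to 12, from wild-type Col-0 plants and 3 mutants of small RNA production. The 27 arrays form 9 groups of n = 3. The leaf groups are dcl4-2, rdr6-15, dcl1-7 and Col-0. The inflorescence groups are dcl4-2 and rdr6-15 with their Col-0 control, here called set A, and dcl1-7 with a Col-0 control of its own, set B. The labels do not say how sets A and B were grown or harvested. The labels name no further allele or treatment and give neither the background of the mutants nor the age of the plants. The arrays of a group are biological replicates, each from at least 9 plants.

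SPT is a basic helix-loop-helix protein that promotes growth of the carpel margins, from which the septum, style, stigma and transmitting tract form. It is also active outside the pistil, where it restrains the growth of leaves and cotyledons. INO is a YABBY protein made on the outer side of the ovule primordium, where it starts the outer integument, and plants without it lack that layer. INO transcript is known from few cells of the flower, in the young ovule. DICER-LIKE 4 and RNA-DEPENDENT RNA POLYMERASE 6 make trans-acting siRNAs, and DICER-LIKE 1 makes microRNAs. Mutants of DICER-LIKE 1 were first found as plants with short integuments, so ovules are among the organs in which this gene is known to act.

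Values are RMA levels on the log2 scale, 1 per probe set and array, and a difference is the first group minus the second, given with its standard error (SE). A probe set was called when its adjusted p was under 0.05. Arrays of 1 group correlated at 0.980 to 0.998 across probe sets and no pair was identical. The summed level of 3 tapetum and early anther genes (of 18 listed) lay between 9.08 and 10.1 on the log2 scale in inflorescences and between 7.32 and 7.69 in leaves, with no overlap between the tissues. That of 2 leaf photosynthesis genes (of 20 listed), RCA and LHCB4.2, overlapped, at 13.8 to 14.6 in inflorescences and 14.4 to 14.8 in leaves. UFO and CLV3, the measured genes of the floral organ identity and meristem lists, had lower means in Col-0 inflorescences than in Col-0 leaves. The annotation gives 0 single-symbol probe sets for the mutated genes, so the genotypes were not checked this way. In these bulk samples fewer cells of a type and less RNA per cell cannot be told apart.

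SPT separated the tissues and also separated the 2 wild-type inflorescence sets. Its level was 8.06, 8.21 and 7.96 in dcl1-7 inflorescences, against 8.48, 8.58 and 8.43 in Col-0 set B. It was 7.77, 7.68 and 7.42 in dcl4-2 inflorescences and 7.48, 7.60 and 7.78 in rdr6-15 inflorescences, against 7.27, 7.36 and 7.30 in Col-0 set A. All 3 dcl1-7 arrays thus lay below every array of set B and above every array of set A. In leaves SPT was at 5.84, 5.66 and 5.89 in dcl4-2, at 5.84, 6.47 and 5.82 in rdr6-15 and at 5.74, 6.45 and 6.21 in dcl1-7, against 5.76, 5.71 and 6.01 in Col-0. The leaf groups overlapped one another, and every leaf array lay below every inflorescence array.

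INO was highest in Col-0 set B and did not separate the tissues. In dcl1-7 inflorescences its level was 6.36, 6.55 and 6.23, against 7.76, 7.32 and 7.26 in Col-0 set B. In dcl4-2 inflorescences it was 7.01, 6.81 and 6.77, and in rdr6-15 inflorescences 6.52, 6.42 and 6.57, against 6.61, 6.97 and 6.56 in Col-0 set A. Set B stood above all other groups of the series, and the dcl1-7 arrays lay below every array of both Col-0 inflorescence sets. In leaves INO was at 6.10, 6.29 and 6.44 in dcl4-2, at 6.41, 6.84 and 6.29 in rdr6-15 and at 6.57, 6.89 and 6.79 in dcl1-7, against 6.31, 6.46 and 6.53 in Col-0. These leaf values cover the same range as most inflorescence arrays. Although INO is known as an ovule gene, only the set B arrays lay above all leaf arrays as a group.

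**Figure D1:**
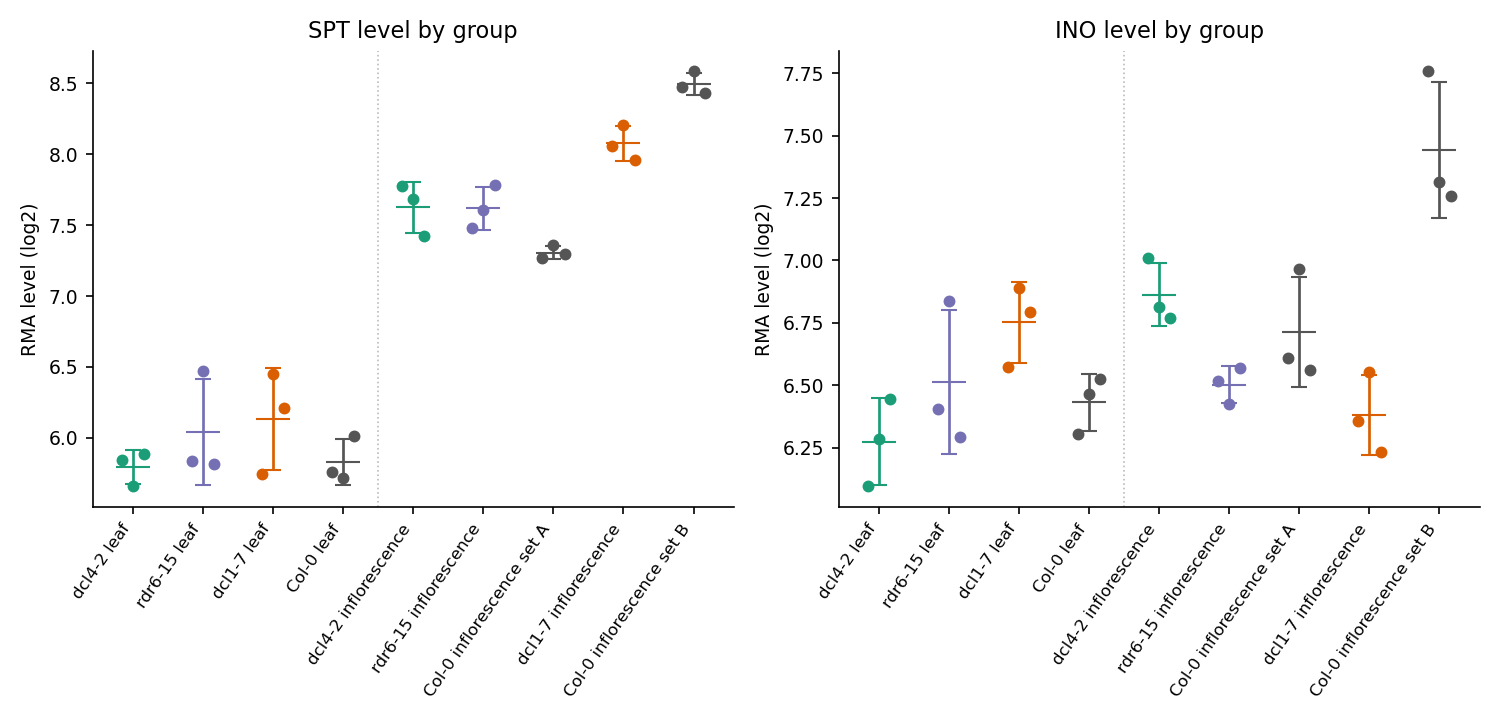
RMA levels of SPT (left) and INO (right) on the log2 axis for the 9 groups, leaf groups left of the dotted line. Points are arrays, the horizontal marks are group means and the bars are SDs (n = 3). All inflorescence arrays lie above all leaf arrays for SPT, whereas for INO only Col-0 set B, at 7.26 to 7.76, lies apart from the rest.

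The order of the group means differed between the genes. For SPT it ran from Col-0 set B (8.50 ± 0.08, SD, n = 3) through dcl1-7 (8.08 ± 0.13), dcl4-2 (7.63 ± 0.18) and rdr6-15 inflorescences (7.62 ± 0.15) to set A (7.31 ± 0.05). The leaves followed, with dcl1-7 (6.14 ± 0.36), rdr6-15 (6.04 ± 0.37), Col-0 (5.83 ± 0.16) and dcl4-2 (5.80 ± 0.12). Neighbours in this order had overlapping ranges among the 4 leaf groups and between dcl4-2 and rdr6-15 inflorescences, and did not overlap elsewhere. For INO set B (7.44 ± 0.27) came first, and its gap of 0.58 to dcl4-2 inflorescences (6.86 ± 0.13) was the one place in the order where neighbours did not overlap. From there INO passed through dcl1-7 leaf (6.75 ± 0.16), Col-0 set A (6.71 ± 0.22), rdr6-15 leaf (6.51 ± 0.29), rdr6-15 inflorescence (6.50 ± 0.07), Col-0 leaf (6.43 ± 0.11) and dcl1-7 inflorescence (6.38 ± 0.16) to dcl4-2 leaf (6.27 ± 0.17).

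Set against the Col-0 arrays that the labels name as its control, dcl1-7 inflorescences had less of both transcripts. INO fell by 1.06 (SE 0.14, adjusted p = 0.00012), a measured level 2.09-fold lower in dcl1-7 than in Col-0 set B. The deposited values carry no detection calls, and INO in dcl1-7 inflorescences was at the level of Col-0 leaves, so whether it lay above the background of its probes was not tested and the true fold may be larger. SPT fell by 0.42 (SE 0.10, adjusted p = 0.0081), which is 1.34-fold lower. In neither gene did the groups overlap. The share of all probe sets without such overlap was not computed, for this or any other comparison. Groups that lie apart are therefore a description of the arrays and not a test. By the adjusted p both members were called lower, in a comparison where 23.4% of all tested probe sets were called. INO ranked 819th by p among the 22746 and SPT 3073rd. The fall of INO kept its call in each of 14 alternative settings that left set B as the control, single arrays left out included. Among those settings the call of SPT ended in a fit of all 27 arrays (adjusted p = 0.083), with the same difference.

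Against Col-0 set A, the same dcl1-7 arrays gave another picture for SPT. SPT rose by 0.77 (SE 0.10, adjusted p = 5.6e-05), 1.71-fold above set A, so its direction in dcl1-7 depends on which wild-type set it is compared with. Both comparisons use the same dcl1-7 arrays. INO was lower here too, by a difference of −0.33 (SE 0.14, adjusted p = 0.085) that missed the threshold, with the 3 dcl1-7 arrays below the 3 arrays of set A. The highest dcl1-7 array, at 6.553, was only just below the lowest set A array, at 6.562. The 95% interval of the INO difference ran from −0.63 to −0.03. In this comparison 35.2% of probe sets were called, 1 of the 2 members among them. Of the marker genes, 3 of 3 tapetum and early anther genes and 2 of 5 pollen genes were called lower in dcl1-7 than in set A, and LHCB4.2 was called higher. Their part in the SPT and INO differences was not tested. The labels name set A as the control of the other mutants only, so whatever separates the sets cannot be told apart from the genotype in it.

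The wild-type sets differed more from each other in SPT than dcl1-7 differed from either. SPT was 1.19 higher in set B than in set A (SE 0.10, adjusted p = 4.5e-07), 2.28-fold, and INO was 0.73 higher (SE 0.14, adjusted p = 0.00065), 1.66-fold. Both members were called, as were 47.7% of all probe sets, so a call in this comparison is common. The summed level of the 3 tapetum and early anther genes was 9.08 to 9.65 in set B and 9.91 to 10.01 in set A, and AMS, a transcription factor of the tapetum, was at 8.07 in set B and 8.67 in set A (adjusted p = 0.13). EMS1, the receptor kinase that specifies tapetum cells, was lower in set B by a difference of −0.82 (SE 0.16, adjusted p = 0.00089), as was SPL, which is also on the ovule list. The summed level of 5 pollen genes (of 22 listed) was 8.09 to 8.23 in set B and 7.99 to 8.15 in set A, and 1 of the 5, AGL30, was called higher in set B (6.67 in set B and 6.32 in set A). LHCB4.2 was also called higher in set B (13.30 in set B and 12.93 in set A). The part of these markers in the SPT and INO differences was not tested.

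No marker gene was called between dcl1-7 inflorescences and set B. The tapetum and early anther sum was 9.23 to 9.47 in dcl1-7, within the range of set B, and limma called 0 of its 3 genes against set B, with 1 (EMS1) at an unadjusted p under 0.05. The pollen sum was 7.94 to 8.12 in dcl1-7 inflorescences, beside 8.09 to 8.23 in set B and 7.99 to 8.15 in set A. All 5 pollen genes were lower in dcl1-7 than in set B by their means. Of these 5 limma called 0, with 0 at an unadjusted p under 0.05. RCA and LHCB4.2 had a summed level of 14.4 to 14.6 in dcl1-7 and 14.3 to 14.5 in set B. Of the meristem list only CLV3 was measured, at 5.12 in dcl1-7 and 5.25 in set B, and of the floral organ identity list only UFO, at 6.12 in dcl1-7 and 6.11 in set B. Neither marked the inflorescence on these arrays, as Col-0 leaves had CLV3 at 5.32 and UFO at 6.395. UFO was called lower in inflorescence than in leaf in every genotype, and CLV3 in dcl1-7 only. RNA quality differed between single arrays: the excess of 3' over 5' signal of the control transcripts, larger in degraded RNA, was 1.95 on dcl1-7 replicate 3 and 2.08 on set B replicate 3, and 0.63 to 0.93 on the other arrays of these groups. Without these and 1 similar dcl4-2 array (1.78) INO differed by −1.08 (adjusted p = 0.00043) and SPT by −0.39 (adjusted p = 0.027).

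**Figure D2:**
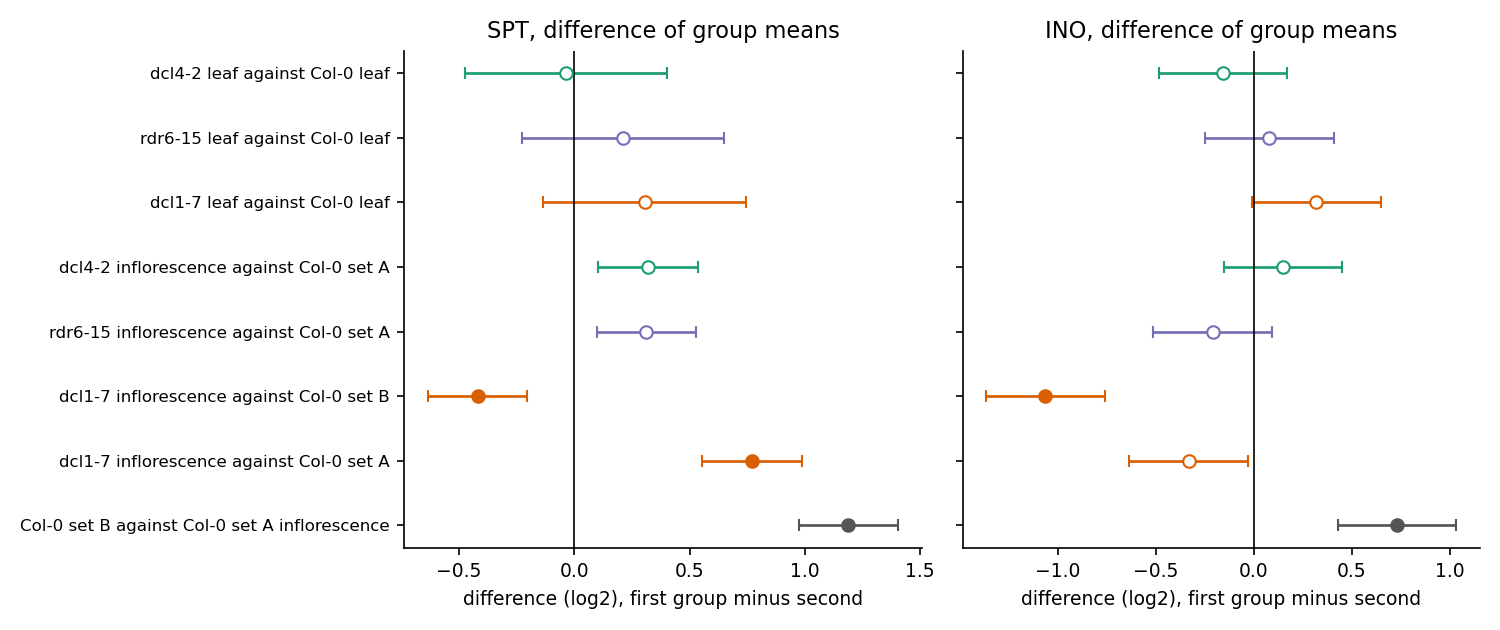
Differences of group means (log2, first group minus second) for SPT (left) and INO (right), with 95% intervals of the fit and n = 3 arrays per group. Filled points passed the threshold. The dcl1-7 difference of SPT lies at −0.42 against Col-0 set B and at 0.77 against set A, while INO lies below 0 in both.

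In the mutants of trans-acting siRNA production neither gene was called. SPT was 0.32 higher in dcl4-2 inflorescences than in set A (SE 0.10, adjusted p = 0.14) and 0.31 higher in rdr6-15 inflorescences (SE 0.10, adjusted p = 0.073). The arrays of either mutant lay above all arrays of set A, and the 95% intervals ran from 0.10 to 0.54 in dcl4-2 and from 0.10 to 0.53 in rdr6-15. Both comparisons use the same 3 set A arrays, which were close together for SPT (SD 0.05). The calls of the whole array were 2.08% in dcl4-2 and 8.66% in rdr6-15. Of the markers, LHCB4.2 was called lower in dcl4-2 than in set A (12.59 in dcl4-2 and 12.93 in set A), and 3 of 5 pollen genes were called lower in rdr6-15 than in set A. Their part in the SPT values was not tested. Under 1 of 15 alternatives SPT passed in dcl4-2 (with array weights, adjusted p = 0.047) and under 3 of 15 in rdr6-15 (the lowest adjusted p was 0.015), whereas with sets A and B pooled as the control both differences turned negative without a call. Part of the wild-type range thus lies above the mutants and part below.

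INO differed by 0.15 in dcl4-2 inflorescences (SE 0.14, adjusted p = 0.70) and by −0.21 in rdr6-15 inflorescences (SE 0.14, adjusted p = 0.45), both with overlapping groups. Compared directly, without any Col-0 array, rdr6-15 was lower than dcl4-2 by a difference of −0.36 in INO (SE 0.14, adjusted p = 0.11, interval −0.66 to −0.06), and the groups did not overlap. The difference of SPT between these mutants was −0.01 (SE 0.10, interval −0.22 to 0.21). Neither was called, where 15.4% of probe sets were. The pollen sum was 7.76 to 7.94 in rdr6-15 and 8.11 to 8.38 in dcl4-2 inflorescences, with 4 of 5 pollen genes called lower in rdr6-15, and LHCB4.2 was called higher there. Their part in the INO values was not tested.

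No leaf comparison called either gene. The 3 mutants share the Col-0 leaf arrays. In dcl4-2 leaves SPT differed by −0.03 (SE 0.20, interval −0.47 to 0.40) and INO by −0.16 (SE 0.15, interval −0.49 to 0.17) from Col-0, where limma called 0% of probe sets (652 had an unadjusted p under 0.05). In rdr6-15 leaves the differences were 0.21 for SPT and 0.08 for INO (0.0176% called). Without rdr6-15 leaf replicate 2, the highest array of its group, they were −0.0037 and −0.08. In dcl1-7 leaves SPT differed by 0.31 (SE 0.20, adjusted p = 0.40) and INO by 0.32 (SE 0.15, adjusted p = 0.22), with 9.42% of probe sets called. The 3 INO values of dcl1-7 leaves lay above those of Col-0 leaves, the opposite order to the inflorescences. Between rdr6-15 and dcl4-2 leaves the differences were 0.25 for SPT and 0.24 for INO (adjusted p = 1.00 for each), and 0.0132% of probe sets were called.

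The leaf values moved with a property of the array. The 12 leaf arrays had a lower quartile over all probe sets of 5.47 to 5.66, highest on dcl1-7 replicates 2 and 3 and on rdr6-15 replicate 2. SPT was highest on the same 3 arrays. Across the 12 arrays the SPT level correlated with that quartile at Pearson r = 0.88 (adjusted permutation p = 0.0020) and Spearman rho = 0.85 (adjusted permutation p = 0.0015), with r = 0.82 after leaving out the 2 arrays farthest from the median quartile. Within groups, as deviations from the group means, r was 0.91. For INO r was 0.73 (adjusted permutation p = 0.0063) and rho 0.52 (adjusted permutation p = 0.082). It fell to r = 0.41 without the 2 farthest arrays, so that relation rests in large part on them. Within groups, with all 12 arrays kept, r was 0.68 for INO. These are the only 2 relations computed. Their permutations shuffled the 12 arrays across genotypes, so the permutation p does not separate genotype from array. The lower quartile describes weak signals, and SPT in leaves, at 5.66 to 6.475, lay between it and the array medians of 6.93 to 6.998. How many other weak probe sets move with the quartile in this way was not computed. The part of the quartile in the leaf differences was not tested.

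**Figure D3:**
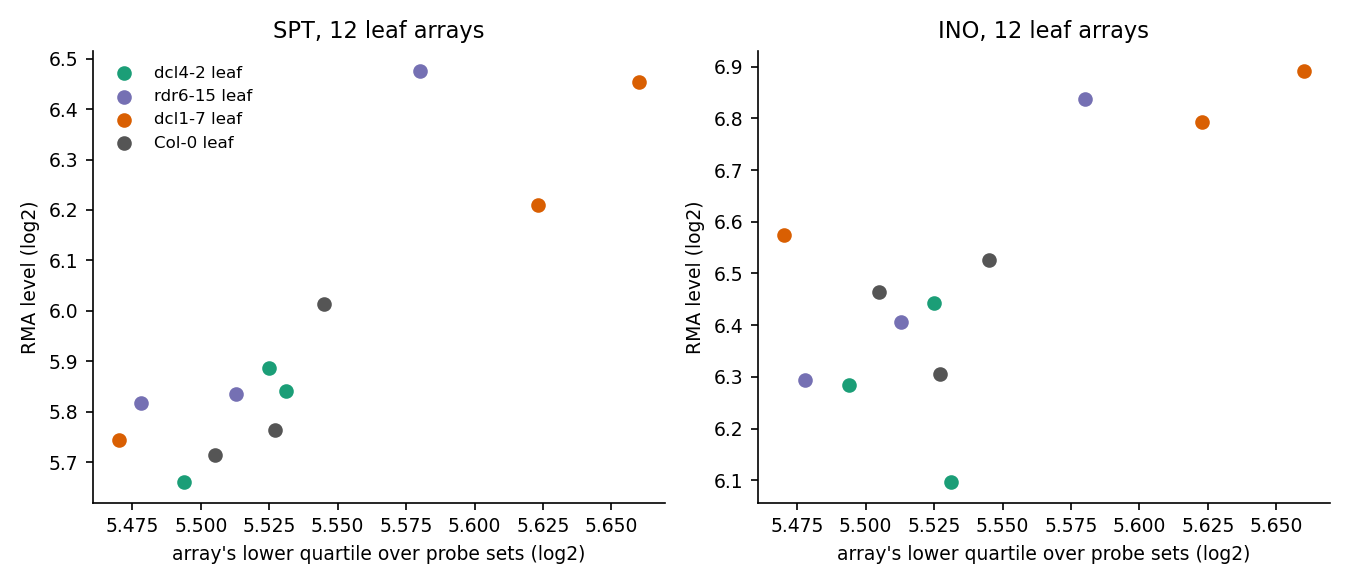
Levels of SPT (left) and INO (right) on the 12 leaf arrays against the lower quartile of all probe sets on the same array (both log2), with 1 point per array. The 3 arrays with the highest quartile carry the 3 highest levels of both genes.

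Inflorescences had more SPT than leaves in every genotype. The difference was 1.94 in dcl1-7 (3.84-fold), 1.83 in dcl4-2 (3.56-fold) and 1.58 in rdr6-15 (2.99-fold). It was 2.67 between Col-0 set B and Col-0 leaf (6.35-fold) and 1.48 between Col-0 set A and Col-0 leaf (2.78-fold), with an SE of 0.16 and adjusted p from 2.5e-12 to 5.3e-08 in all 5. INO followed this only in part. It was higher in inflorescence by 1.01 in Col-0 set B (SE 0.15, adjusted p = 3.6e-06) and by 0.59 in dcl4-2 (adjusted p = 0.0017). It was not called in Col-0 set A (0.28, adjusted p = 0.11) or in rdr6-15 (−0.01, adjusted p = 0.96). In dcl1-7 INO was lower in inflorescence than in leaf by a difference of −0.37 (SE 0.15, adjusted p = 0.033).

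That last call was not stable. It ended without dcl1-7 leaf replicate 2 (−0.30, adjusted p = 0.12) or 3 (−0.35, adjusted p = 0.079) and without dcl1-7 inflorescence replicate 1 (−0.36, adjusted p = 0.074) or 3 (−0.30, adjusted p = 0.13). Calls between tissues were the rule on these arrays, at 65.1% of probe sets in dcl1-7, 61.3% in dcl4-2, 60.1% in rdr6-15, 58.9% for set B and 60.0% for set A. The sources used here do not say whether the authors normalized leaf and inflorescence arrays together. The excess of 3' over 5' signal was 0.56 to 2.08 in inflorescences and 1.96 to 3.29 in leaves, and its part in the tissue differences was not tested. Renewed quantile normalization of all 27 arrays kept every SPT call and every INO call between tissues.

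The effect of dcl1-7 on INO differed between the tissues with either wild-type set, and that on SPT was called to differ with set B only. For INO the inflorescence effect against set B minus the leaf effect was −1.38 (SE 0.21, adjusted p = 4.6e-05), and it was still called with set A as the inflorescence control (−0.65, adjusted p = 0.036). The set A value joins 2 differences that were not called, −0.33 in the inflorescence and 0.32 in the leaf. The highest dcl1-7 leaf arrays for INO, replicates 2 and 3, also had high lower quartiles, whose part was not tested. For SPT the tissue difference was −0.72 (SE 0.23, adjusted p = 0.025) against set B and 0.47 (adjusted p = 0.18) against set A. Of all 22746 probe sets 22.3% were called in this test with set B, and 3804 probe sets with set A. The SPT call also ended when any 1 of 7 arrays was left out: dcl1-7 leaf replicate 2 or 3, Col-0 leaf replicate 1 or 2, dcl1-7 inflorescence replicate 1 or 3, or set B replicate 2 (values from −0.72 to −0.57, the highest adjusted p 0.086). The dcl4-2 effect did not pass for SPT (0.35, adjusted p = 0.88) or INO (0.31, adjusted p = 0.90), with 0.224% called. Nor did that of rdr6-15 for SPT (0.10, adjusted p = 0.92) or INO (−0.29, adjusted p = 0.65), with 2.45% called.

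Plotted against each other, the genes placed the inflorescence groups in different corners. Set B had high SPT with high INO. The dcl1-7 inflorescences had the second highest SPT with INO at leaf level, 6.38 in dcl1-7 inflorescences beside 6.43 in Col-0 leaves. Set A, dcl4-2 and rdr6-15 had the lowest SPT of the inflorescence groups, though above all leaf arrays, and INO between 6.42 and 7.01.

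**Figure D4:**
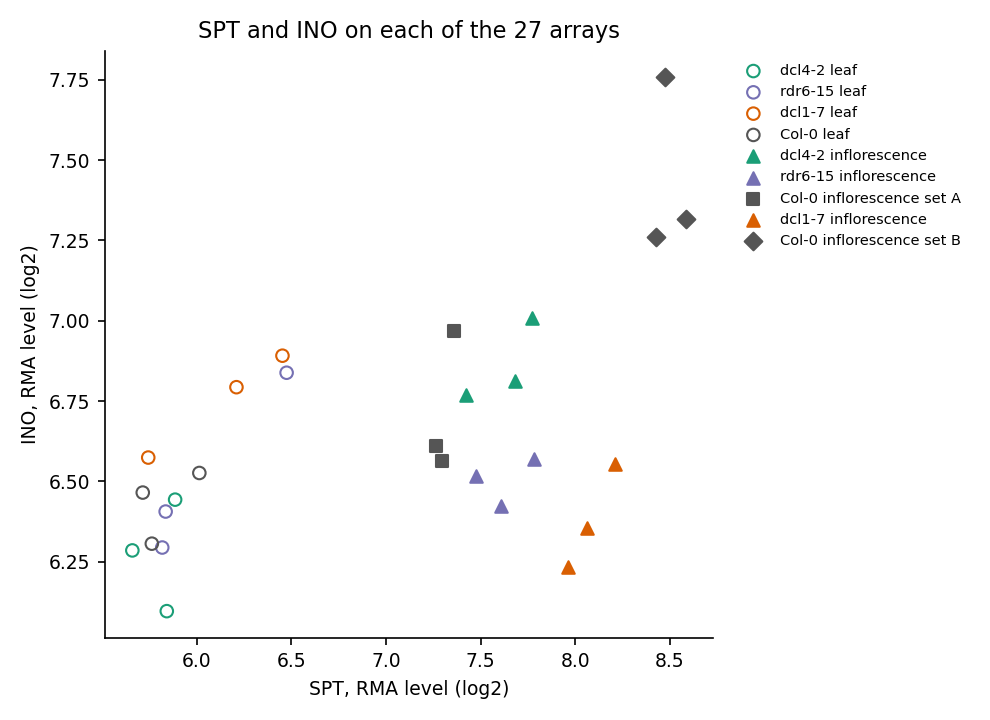
SPT level (x axis) against INO level (y axis), both RMA log2, with 1 point per array for all 27 arrays. The dcl1-7 inflorescence arrays have SPT of 7.96 to 8.21 with INO of 6.23 to 6.55, and the set B arrays have SPT of 8.43 to 8.58 with INO of 7.26 to 7.76.

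ALC, a close relative of SPT, was also higher in set B and in dcl1-7 inflorescences than in set A. ALCATRAZ is a basic helix-loop-helix protein that acts together with SPT in the carpel and patterns the opening zone of the fruit. It was at 10.51 in dcl1-7 inflorescences, against 10.75 in set B (difference −0.24, SE 0.16, adjusted p = 0.34) and 9.31 in set A (difference 1.20, SE 0.16, adjusted p = 7.4e-05). Between the wild-type sets ALC was 1.44 higher in set B (SE 0.16, adjusted p = 6.2e-06), and in leaf it lay at 6.14 in Col-0. ALC fell in rdr6-15 relative to dcl4-2 inflorescences by 0.65 (SE 0.16, adjusted p = 0.016). Of all probe sets 35.2% were called in dcl1-7 against set A, 47.7% between the wild-type sets and 15.4% between rdr6-15 and dcl4-2 inflorescences. Of the 13 symbols of the PIF-like list, SPT and ALC were the 2 measured by a single-symbol probe set.

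The other carpel genes with a single-symbol probe set, 9 beside SPT of 35 listed, were called about as often as all probe sets or less. Against set B 1 of the 9 was called in dcl1-7 inflorescences, where 23.4% of all probe sets were: JAG, a zinc finger protein of organ growth, rose by 0.35 (SE 0.08, adjusted p = 0.0095). The median of the 9 was 0.04, beside −0.006 over all probe sets. Against set A, where 35.2% of all probe sets were called, 3 of the 9 rose, namely ALC, JAG (0.41, adjusted p = 0.0021) and NGA2 (0.27, adjusted p = 0.041), and the median was 0.20, beside −0.02 over all. NGA2 is one of 4 related B3-domain genes of style development, and the other 3, NGA1, NGA3 and NGA4, were not called against either set. SEU, a corepressor of floral genes, NUB, the close relative of JAG, and TCP15, a growth regulator of the TCP family, were not called either. In set B against set A ALC and NGA2 were higher and the other 7 were not called, where 47.7% of all probe sets were.

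In dcl1-7 against set B, and in set B against set A, most of the other ovule genes went the opposite way to INO. In dcl1-7 against set A the 2 that were called, HLL and SPL, were lower, as INO was without a call. PHV and BAN had higher means there. Of 4 measured beside INO (30 listed), 3 rose in dcl1-7 inflorescences against set B, where INO fell and 23.4% of all probe sets were called, and the median of the 4 was 0.62 beside −0.006 over all. With 4 genes this count describes them and was not tested as a group. PHV, a polarity gene and microRNA target, rose by 0.80 (SE 0.15, adjusted p = 0.0019). HLL, a mitochondrial ribosomal protein needed for ovule growth, rose by 0.67 (SE 0.10, adjusted p = 0.00024), and BAN, a flavonoid enzyme of the innermost integument layer, rose by 0.57 (SE 0.13, adjusted p = 0.0059). BAN was at 6.03 in set B and 6.15 in Col-0 leaves, so for BAN too a signal above background was not tested. SPL, needed for sporocyte formation in ovules and anthers, was at 6.61 in dcl1-7 and 6.51 in set B and was not called. Against set A HLL fell by 0.95 (SE 0.10, adjusted p = 6.9e-06) and SPL fell by 0.49 (adjusted p = 0.037), while PHV and BAN were not called, beside 35.2% called over all probe sets. All 4 were lower in set B than in set A, by differences of −1.63 for HLL, −0.59 for SPL, −0.55 for PHV and −0.38 for BAN, whereas INO was higher there, and 47.7% of all probe sets were called. Of these 5 ovule genes INO alone was below both wild-type sets by its group mean and its range. Only its fall against set B was called. The highest dcl1-7 array for INO, at 6.553, almost met the lowest set A array, at 6.562, so the separation in range from set A is slight.

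INO's measured YABBY relatives, 2 of 8 listed symbols beside it, did not share its change. YAB3 was at 8.18 in dcl1-7 inflorescences, against 8.08 in set B (adjusted p = 0.62) and 8.32 in set A (adjusted p = 0.34). YAB5 was at 5.36 in dcl1-7 inflorescences, against 5.16 in set B and 5.29 in set A, and was called against neither. YAB5 had the reverse tissue pattern, at 5.16 in set B and 8.21 in Col-0 leaves. Both act in lateral organs, YAB5 and YAB3 on the lower side of leaves, whereas INO is known from the ovule alone. In dcl1-7 leaves YAB5 rose by 0.45 (adjusted p = 0.038) and PHV rose by 0.99 (adjusted p = 0.0013), the 2 called among the 15 other listed genes, in a comparison where 9.42% of all probe sets were called.

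**Figure D5:**
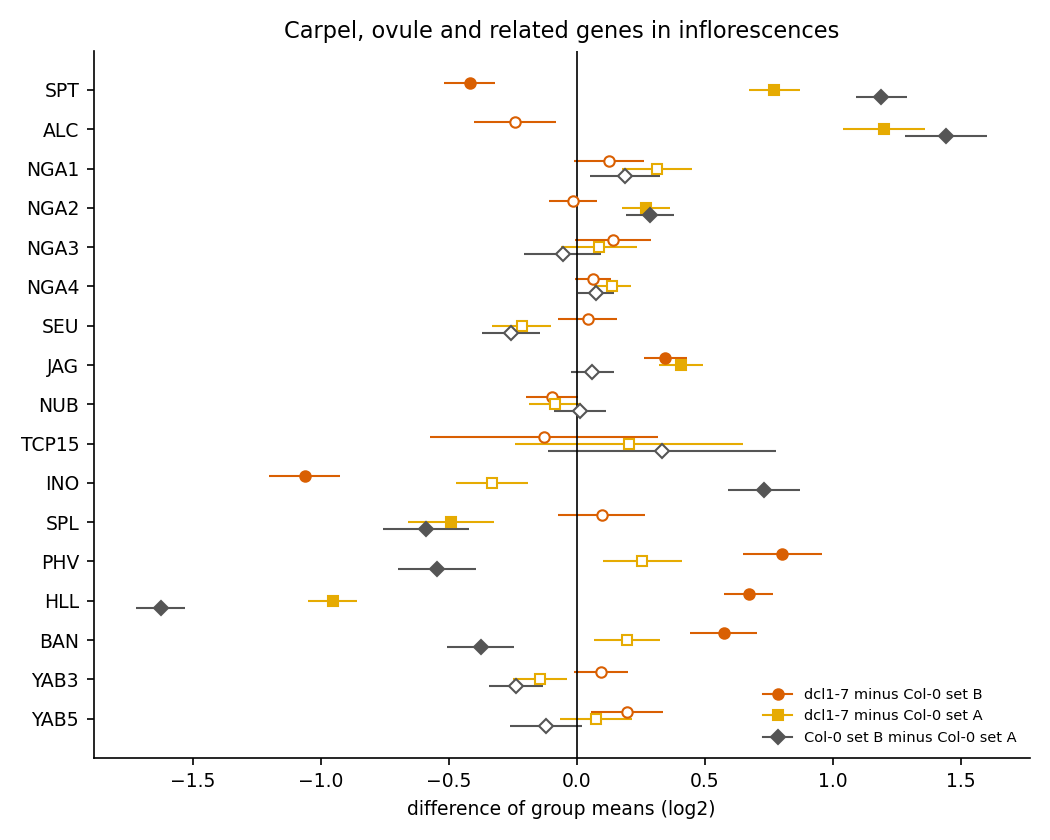
Differences of group means (log2) in inflorescences for SPT, INO and the 15 other carpel, ovule, YABBY and PIF-like genes, as dcl1-7 minus set B (circles), dcl1-7 minus set A (squares) and set B minus set A (diamonds), with bars of 1 SE and filled marks for calls. The 3 comparisons share arrays. INO, at −1.06 against set B, lies opposite to PHV, HLL and BAN at 0.57 to 0.80.

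In dcl4-2 and rdr6-15 inflorescences 0 of the 15 other genes were called by limma, and 1 in dcl4-2 and 2 in rdr6-15 had an unadjusted p under 0.05. Over all probe sets 2.08% were called in dcl4-2 and 8.66% in rdr6-15, so few calls among 15 genes are the background. ALC was at 0.45 in dcl4-2 (adjusted p = 0.20). In rdr6-15, YAB3 was at 0.32 (adjusted p = 0.080) and BAN at −0.39 (adjusted p = 0.086). The median of the 15 was 0.002 in dcl4-2 and 0.06 in rdr6-15, beside −0.007 and 0.02 over all probe sets. Between the mutants YAB3 rose by 0.38 in rdr6-15 relative to dcl4-2 (adjusted p = 0.026), and ALC was the other call among the 15. In that comparison 15.4% of all probe sets were called.

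Genes most like each member were ranked by Pearson r, as a description. Over the 9 group means, which share the tissue contrast, the 5 closest to SPT were AT5G12410, AT1G62880, AT5G23405, AT3G07280 and AT1G70100 (r = 0.99 for each). Over the 15 inflorescence arrays they were AT4G32680, AT2G16660, PAHX, AT3G57340 and AT1G61150 (r from 0.96 to 0.97). PAHX, a phytanoyl-CoA hydroxylase, averaged 10.38 in dcl1-7 inflorescences, against 10.77 in set B and 9.22 in set A. INO had looser matches. Over the 9 group means these were AT5G24600, LEA4-5, AT2G41190, AT1G01730 and AT3G58290 (r from 0.87 to 0.90), and over the 15 inflorescence arrays TET9, AT5G24600, AT2G41190, AT1G26390 and AT5G51440 (r from 0.87 to 0.91). TET9, a tetraspanin, averaged 5.75 in dcl1-7 inflorescences, against 6.58 in set B and 5.76 in set A. LEA4-5, a late embryogenesis abundant protein, averaged 5.95 in dcl1-7 inflorescences, against 6.54 in set B and 6.17 in set A. None of these genes was on the carpel or ovule lists. Beside the members these lists hold 9 and 4 measured genes, against 3605 to 7985 candidates for each ranking, so their absence says little.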

How the data were processed

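The authors deposited log2 values, and RMA is the tool that the submitters' processing notes name. Its version is not given in the sources used here, and the log2 scale was read from the values. RMA compresses differences of weakly expressed genes. Arrays carry no read depth, and their number limits the precision. Of 22810 probe sets, 64 controls were left out, which leaves 22746. The platform annotation gives 13513 of these 1 symbol, 503 several and 8730 none. Of the 13513, 13436 were found by locus in the RefSeq genes of TAIR10.1, which served for names.

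Groups were taken from the sample descriptions. Group means were fitted by lmFit and eBayes (limma 3.58.1, R 4.3.3, two-sided tests) to the 12 leaf, the 15 inflorescence or, for tissue comparisons and interactions, all 27 arrays, in 18 comparisons, with Benjamini-Hochberg adjustment over all tested probe sets at 0.05. No dim probe sets were left out. The fit was tested on simulated data. Permutation tests used 100000 resamples. The 3' minus 5' difference is the mean over 3 control transcripts.

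The members and gene lists were chosen with earlier results of these data known. Named genes are the members, listed genes with the smallest p (up to 5 per comparison) or with a role beside SPT or INO, and the 5 genes most like each member whose range was at least 0.5 times the member's. Beyond this, AMS, EMS1, AGL30, RCA, LHCB4.2, CLV3 and UFO are named as markers.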

Additional observations from a re-analysis of the deposited data

Results flagged for a closer look

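The effect of dcl1-7 on INO differed between the tissues. The inflorescence effect against Col-0 set B minus the leaf effect was −1.38 (SE 0.21, adjusted p = 4.6e-05 by limma). In the inflorescence all 3 dcl1-7 arrays lay below set B, and in the leaf all 3 lay above Col-0, where the difference of 0.32 was not called (adjusted p = 0.22). Under the set A control, chosen after the data were seen, the INO value was −0.65 (adjusted p = 0.036 by limma). That value joins differences that were not called in either tissue. The part of the lower quartile in the leaf values was not tested.

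The effect of dcl1-7 on SPT also differed between the tissues by this test, at −0.72 (SE 0.23, adjusted p = 0.025). With set A as the inflorescence control, an alternative chosen after the data were seen, the value was 0.47 (adjusted p = 0.18). No group holds more than 3 arrays, so single arrays were not screened as outliers.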

How the results depend on the processing

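Of 36 member differences, 22 kept direction and call under every alternative run, among them all 5 SPT differences between tissues, both differences between the wild-type sets and both dcl1-7 differences against set A. With Col-0 sets A and B pooled as control, SPT in dcl1-7 inflorescences reversed to 0.18 and INO weakened to −0.70 (adjusted p = 0.20), SPT reversed to −0.27 in dcl4-2 and −0.28 in rdr6-15, and INO reversed to −0.22 in dcl4-2. Its 6 control arrays hold a pair of sets that differ. Set A as control turned the SPT dcl1-7 tissue difference to 0.47. In a fit of all 27 arrays SPT in dcl1-7 against set B lost its call at −0.419. With array weights SPT passed in dcl4-2 (0.33) and rdr6-15 (0.30) inflorescences, INO passed between rdr6-15 and dcl4-2 (−0.41), INO between dcl1-7 tissues lost its call (−0.34), and values near 0 changed sign (0.0045 for SPT in dcl4-2 leaf, 0.0022 for INO between rdr6-15 tissues). With only the groups compared, SPT in rdr6-15 (0.313) and INO between the siRNA mutants (−0.361) passed and the SPT dcl1-7 tissue difference (−0.724) did not. Without arrays of high 3' minus 5' difference SPT passed in rdr6-15 (0.313), the INO dcl1-7 difference between tissues (−0.299) and the SPT tissue difference of the dcl1-7 effect (−0.70) did not, and SPT between the siRNA mutants became 0.021. That last value was 0.0075 with median centring and 0.0062 with quantile normalization. The causes of these changes were not tested.

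Leaving out 1 array gave −0.0925 to 0.057 for SPT in dcl4-2 leaf, −0.0037 to 0.32 for SPT and −0.082 to 0.19 for INO in rdr6-15 leaf, −0.11 to 0.067 for SPT between rdr6-15 and dcl4-2 inflorescences, −0.12 to 0.15 for INO between rdr6-15 tissues, −0.46 to −0.30 for INO between dcl1-7 tissues, −0.012 to 0.32 for the SPT tissue difference of the rdr6-15 effect and −0.92 to −0.57 for that of dcl1-7. Counts of called probe sets moved by over 1.5 times in several comparisons: 0 to 19 beside 0 (dcl4-2 leaf), 1 to 16 beside 4 (rdr6-15 leaf), 970 to 4055 beside 2142 (dcl1-7 leaf), 157 to 1432 beside 473 (dcl4-2 inflorescence), 1035 to 5254 beside 1969 (rdr6-15 inflorescence), 232 to 7510 beside 5314 (dcl1-7 against set B), 2320 to 5136 beside 3513 and 0 to 41 beside 3 (rdr6-15 against dcl4-2 in inflorescence and in leaf), and 17 to 183 beside 51 and 351 to 1045 beside 558 (tissue differences of the dcl4-2 and rdr6-15 effects). With Spearman rho, 1 and 2 of the 5 genes most like SPT and 1 and 0 of those most like INO were shared with the Pearson choice, over group means and inflorescence arrays. No paired analysis was possible because the labels give no replicate number shared between groups.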
